A study of Mus musculus with 10 samples.

Results

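The EGF family is a set of growth factors made as membrane-bound precursors, cut from the cell surface by ADAM proteases, that bind the ERBB receptor tyrosine kinases. HB-EGF (Hbegf), amphiregulin (Areg), epiregulin (Ereg), betacellulin (Btc) and TGF-alpha (Tgfa) bind EGFR, and neuregulin 1 (Nrg1) binds ERBB3 or ERBB4. ERBB2 has no known soluble ligand and acts as a partner of the other receptors, while ERBB3 has a weak kinase and signals through such partners. Activated receptors signal through RAS and ERK and through PI3-kinase. ERRFI1, also called MIG6, binds the kinase domains of EGFR and ERBB2 and inhibits them. Its gene is itself induced by growth factor signalling.

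The transcripts described here are the 6 ligands Hbegf, Areg, Ereg, Btc, Tgfa and Nrg1, the 3 receptors Egfr, Erbb2 and Erbb3, and the inhibitor Errfi1, 10 genes taken by symbol from a table of 18430 rows. Each had at most 1 row of its own; 8 had a row, and Areg and Tgfa are not analysed here. All 8 reached 1 RPKM (reads per kilobase of transcript, scaled to the mapped reads of the library) in at least 2 libraries and were tested with 12842 rows in all. Only 4 libraries reached that level for Btc and 7 for Erbb3, against all 10 libraries for the other 6 genes. For Btc these were 3 FOXP2 clones and 1 FOXP2-CPED1 clone, so it was tested through the clones, and neither control reached the level. By the rule that a gene under 1 RPKM everywhere is not expressed, none of the 8 was so called.

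RNA came from NIH3T3 cells, an established mouse embryo fibroblast line. The 4 FOXP2 libraries are independent clones stably overexpressing FOXP2, a forkhead transcription factor, and the 4 FOXP2-CPED1 libraries are independent clones stably overexpressing a FOXP2 arrangement joined with CPED1. The control arm is 1 library of parental cells and 1 of cells stably carrying the vector. The promoter that drives the constructs is not given in the sources used here, and neither control is said to be a clone, so an effect of cloning cannot be told apart from an effect of a construct. The question was how each construct changes the transcripts of these cells. Each culture gave 1 library, so the spread within an arm is the spread between clones or between the 2 control cultures.

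The fibroblast label was checked on 10 marker genes. Of these, 8 had a row, and their summed level was 5945 to 8326 RPKM in FOXP2 clones, 6378 to 8967 in FOXP2-CPED1 clones and 9009 to 9116 in the controls. Of 14 epithelial, endothelial and blood markers, 3 had a row; the epithelial ones, Cdh1 and Krt14, summed to at most 5.19 RPKM and the endothelial Cdh5 reached at most 0.536. The mouse Foxp2 row lay between 0.0674 and 1.02 RPKM in all libraries. It was 0.0798 in parental and 0.0785 in vector cells and at least 0.145 in FOXP2 clones. FOXP2-CPED1 clone 3 lay below both controls at 0.0674, and the other clones of that construct lay above them. The mouse Cped1 row stood at 16.8, 21.5, 25.4 and 6.69 RPKM in FOXP2-CPED1 clones 1 to 4. It was 24.2 in parental and 27.0 in vector cells and 6.43 to 31.0 in FOXP2 clones. No FOXP2-CPED1 clone exceeded both controls for Cped1. Since the species of the introduced sequence is not given, neither row checks the labels. Both mitochondrial rows were listed at 0 in FOXP2 clones 2 and 4 and FOXP2-CPED1 clone 3, and summed to 33213 RPKM or more elsewhere. These 3 libraries stand apart for a reason that was not tested. The RPKM worth of a single read among rows with low values put the depth of the libraries at 0.913 to 1.32 times that of the parental library; the absolute depth is unknown.

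Errfi1 stood out from the other 7 genes. Its mean level was 4.74 times lower in the 8 clones than in the controls, and 0.288% of tested rows had a lower fold change. The fall passed the test when the 8 clones were compared as 1 set, and each construct alone missed the threshold. The EGFR ligands Hbegf and Ereg lay below both controls in 7 of 8 clones without passing. Nrg1, Btc and Erbb3 overlapped with the controls in both constructs. Egfr and Erbb2 lay above both controls in all 4 FOXP2-CPED1 clones, as 12.2% of all rows did, without passing.

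Sequence upstream of Errfi1 is shown because it is the member that passed a test and because the table gives it a pair of transcription starts. Promoters come from RefSeq on GRCm38.p6, which is a later build than the mm9 of the deposited values and is used for the sequence alone; 4 of the 8 genes with a row (Btc, Egfr, Erbb2 and Errfi1) matched. Windows hold the 250 bases before a start, printed 5′ to 3′ on the + strand. Capitals mark matches, on either strand, to any of the motifs that were searched. These were the AP-1 site TGANTCA, the cyclic AMP response element TGACGTCA, the forkhead core TGTTTAC, the GC box GGGCGG, the EGR site GCGTGGGCG, the TATA box TATAAA and the CArG box. Matches to the GC box and the EGR site can overlap. The upstream start has its window at chr4:150853546-150853795, outside the annotated gene, and the downstream start at chr4:150854820-150855069, inside the gene and over no annotated exon of it (GENCODE M21).
Errfi1 upstream start: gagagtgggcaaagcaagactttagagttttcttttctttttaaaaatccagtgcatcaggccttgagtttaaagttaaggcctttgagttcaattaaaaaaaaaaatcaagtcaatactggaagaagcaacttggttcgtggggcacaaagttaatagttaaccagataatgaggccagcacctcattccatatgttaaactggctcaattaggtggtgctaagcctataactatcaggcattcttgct
Errfi1 downstream start: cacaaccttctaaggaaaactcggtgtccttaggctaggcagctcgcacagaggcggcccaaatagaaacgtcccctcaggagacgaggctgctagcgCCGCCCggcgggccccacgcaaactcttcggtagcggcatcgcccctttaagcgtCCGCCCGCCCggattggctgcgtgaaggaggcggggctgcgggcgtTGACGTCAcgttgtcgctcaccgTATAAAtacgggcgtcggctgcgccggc

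The upstream window is 38.0% G and C and holds none of the 7 motifs. The downstream window is 64.8% G and C. It holds a TGACGTCA match from 51 to 44 bases before the start and a TATAAA match from 28 to 23 bases before it. On the opposite strand it holds 3 GC box matches, at 152 to 147, 97 to 92 and 93 to 88 bases before the start. The matches at 97 to 92 and 93 to 88 overlap. Among 32851 promoter windows of the same length, TGACGTCA occurs in 1.55%, TATAAA in 12.4% and the GC box in 32.7%. No match to the AP-1 site, the forkhead core, the EGR site or the CArG box lies in either window. Among all windows the AP-1 site occurs in 6.75%, the forkhead core in 3.17%, the EGR site in 0.536% and the CArG box in 1.47%. A match is a string of letters in this window and says nothing of a bound factor. Errfi1 has 1 RPKM row, which does not tell the starts apart.

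**Figure D1:**
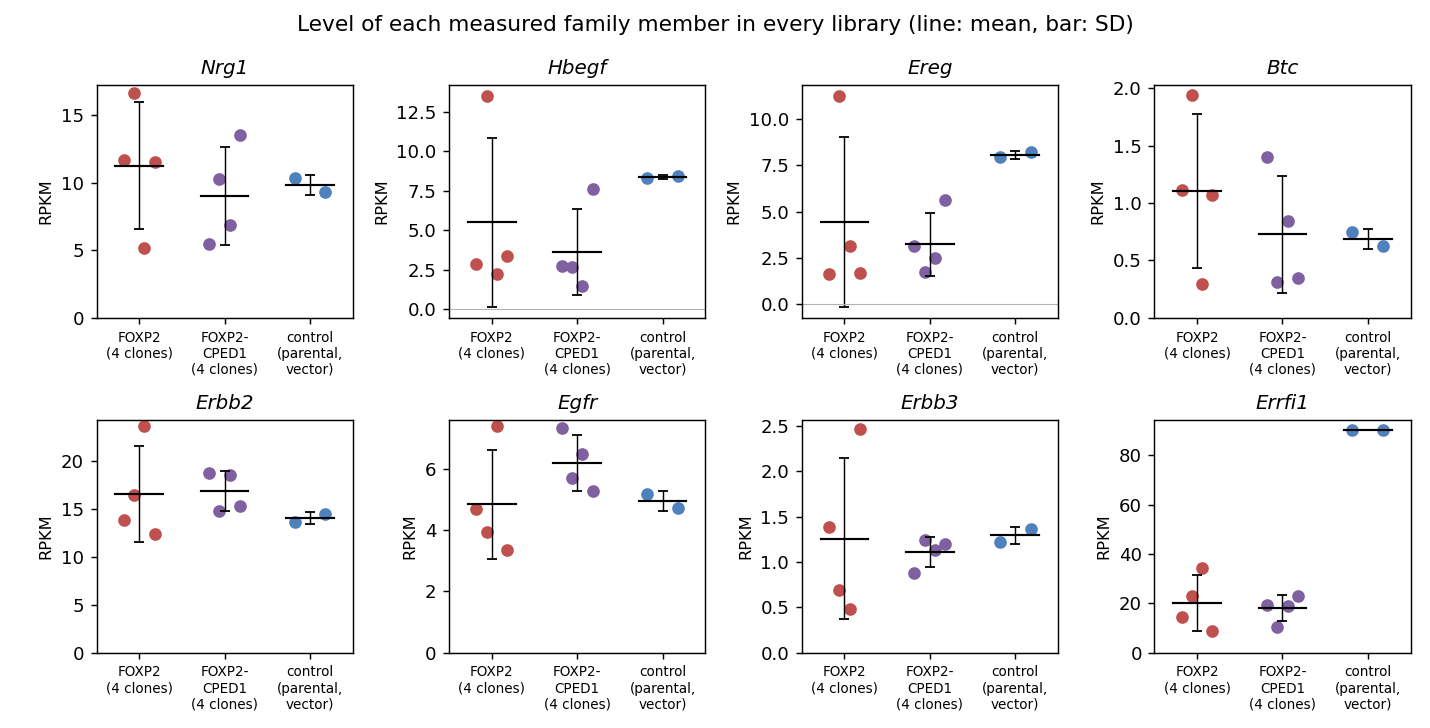
Level in RPKM (vertical axes, linear, a scale per gene) of the 8 measured genes in every library, as points, for FOXP2 clones, FOXP2-CPED1 clones and controls; lines are means and bars are SDs (n = 4, 4 and 2). Errfi1 is at most 34.4 RPKM in the clones and 90.3 in both controls, while the other genes overlap between at least one construct and the controls.

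Errfi1 (ENSMUSG00000028967) was the most abundant of the 8 transcripts per unit of length in the controls. It stood at 14.6, 23.0, 34.4 and 8.63 RPKM in FOXP2 clones 1 to 4, at 19.2, 10.6, 18.9 and 23.2 in FOXP2-CPED1 clones 1 to 4, and at 90.3 in both parental and vector cells. Every clone lay below both controls by a wide gap, and FOXP2 clone 3, the highest of the clones, was still far from them. Means were 20.1 ± 11.2 RPKM with FOXP2 and 17.9 ± 5.27 with FOXP2-CPED1 (SD, n = 4 each), against 90.3 ± 0.0341 in the control (n = 2). That is 4.48 times lower with FOXP2 and 5.03 times lower with FOXP2-CPED1 as a ratio of means. The 2 controls differed by less than they did for all but 0.514% of tested rows. In these bulk libraries, fewer cells making a transcript and less of it per cell cannot be told apart.

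Tests used limma on log2(RPKM + 1) across all 12842 rows and 10 libraries, with two-sided p-values and Benjamini-Hochberg adjustment, and 0.05 as the threshold; differences on this scale understate the change of low transcripts. Over the 8 clones, Errfi1 fell by 2.30 ± 0.41 (standard error) on the log2 scale, with a 95% interval from -3.22 to -1.38 and adjusted p = 0.0460. It was lower in 8 of 8 clones. It was the 1 family member of 8 that passed in that comparison, in which 0.537% of all rows passed (69 rows; 0.498% of rows passed as lower and 0.0389% as higher). It was also the 1 member with an unadjusted p under 0.05, as 9.1% of rows had. Clones did not overlap with the controls for Errfi1, and every clone lay below both controls for 6.38% of rows and above both for 5.44%. The exact permutation test over libraries, two-sided, gave p = 0.0222, the smallest that 8 against 2 allows.

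For each construct alone the difference in Errfi1 was as large and the call was missed. With FOXP2 it was -2.27 ± 0.45 (adjusted p = 0.0885, limma), and with FOXP2-CPED1 it was -2.32 ± 0.45 (adjusted p = 0.0830, limma). Of the 8 members, 0 passed with FOXP2 and 0 with FOXP2-CPED1 by limma, where 0.436% (FOXP2) and 0.35% (FOXP2-CPED1) of all rows did. Errfi1 was the 1 member with an unadjusted p under 0.05 in each, as 8.52% of rows had with FOXP2 and 7.28% with FOXP2-CPED1. With FOXP2, Errfi1 was the 1 member with every clone below both controls, as 10.4% of rows were, and 0 members had every clone above them, as 9.13% of rows had. The exact permutation p was 0.0667 for either construct, the smallest that 4 against 2 allows. The 2 comparisons share their controls. Over the 8 members the median log2 difference was -0.09 with FOXP2, with 5 negative, and -0.15 with FOXP2-CPED1, with 6 negative; the median over all rows was 0.02 with FOXP2 and 0.0016 with FOXP2-CPED1. Between constructs, FOXP2-CPED1 minus FOXP2, the Errfi1 difference was -0.04 ± 0.37 with a 95% interval from -0.87 to 0.78 (adjusted p = 0.9998).

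The call of Errfi1 over the 8 clones lies at the threshold, while its size moved little, between -2.45 and -2.13 over 20 alternatives, of which 8 kept the call. Its adjusted p was 0.505 without the parental and 0.529 without the vector library, where 1 control library remains. It was also lost without FOXP2 clone 1 (0.0963) or clone 2 (0.0632), without FOXP2-CPED1 clone 1 (0.0910), clone 2 (0.0691), clone 3 (0.0963) or clone 4 (just above the threshold), and it was 0.134 once the 3 libraries listed at 0 for both mitochondrial rows were removed. It held without FOXP2 clone 3 (0.0184) and without FOXP2 clone 4 (0.0278). Without FOXP2 clone 3, Errfi1 also passed with FOXP2 alone (0.0390) and with FOXP2-CPED1 alone (0.0447), and without FOXP2 clone 4 it passed with FOXP2-CPED1 (0.0347). The summed fibroblast markers given above were lower in every clone than in the controls too, but not each marker was. Of the 8 with a row, 6 had negative differences over the 8 clones, with Vim at a mean of 1827 RPKM against 2967 in the controls. Col1a1 lay above both controls in every FOXP2-CPED1 clone, as 12.2% of rows did, at a mean of 1180 RPKM against 976. The part of these markers in the result was not tested.

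**Figure D2:**
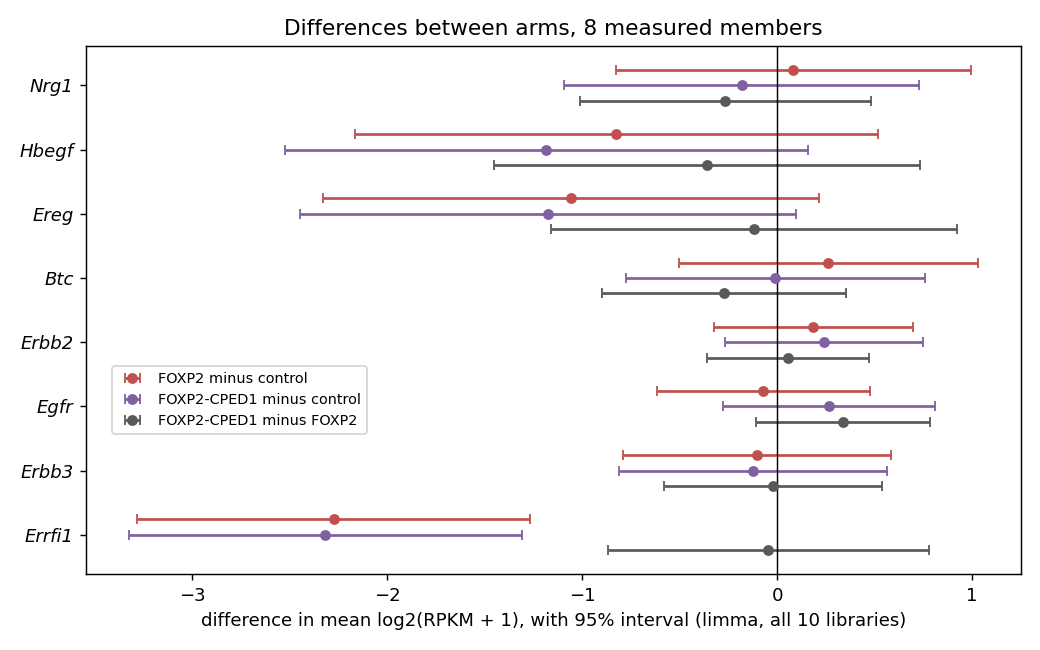
Differences in mean log2(RPKM + 1) between arms (horizontal axis) for the 8 measured genes, with 95% intervals from limma, for FOXP2 minus control, FOXP2-CPED1 minus control and FOXP2-CPED1 minus FOXP2. The intervals of Errfi1 against the control run from -3.28 to -1.27 with FOXP2 and from -3.33 to -1.31 with FOXP2-CPED1, and the intervals of the other 7 genes reach across 0.

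By a rule of likeness, the 5 single-gene rows with the highest Pearson correlation to Errfi1 over the 10 libraries were Egr3, a zinc finger transcription factor induced by growth factors (r = 0.970), Trib1, a pseudokinase (0.966), Zswim4 (0.961), Nfe2l2, the NRF2 transcription factor (0.935), and Phlda1, a pleckstrin homology-like domain protein (0.929). They were chosen for this likeness, so it is a description. The 10 points share the split between clones and controls. Over the 8 clones alone the same correlations were 0.867, 0.871, 0.841, 0.682 and 0.680. Egr3 reached 9.93 RPKM at most in the clones and 49.0 and 54.7 in parental and vector cells, and FOXP2 clone 4 was the lowest library for both Egr3 and Errfi1. The highest clone was FOXP2 clone 2 for Egr3 and FOXP2 clone 3 for Errfi1. Nfe2l2 followed Errfi1 over a narrow range, 48.7 to 63.4 RPKM over the libraries.

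**Figure D3:**
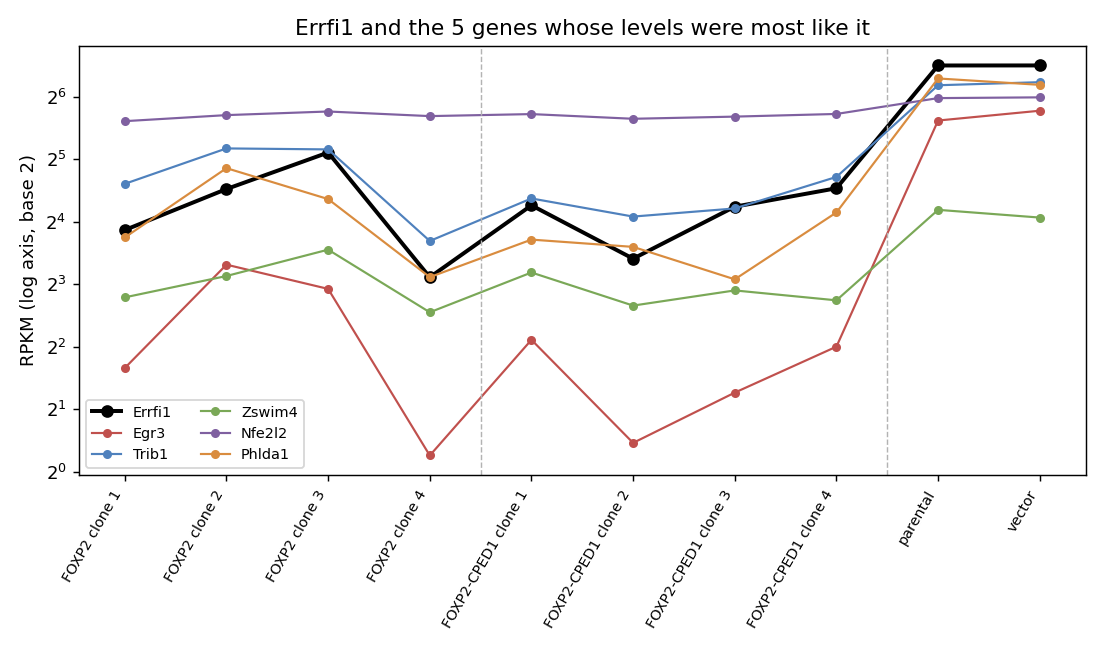
Level in RPKM (vertical axis, log scale of base 2) of Errfi1 and of the 5 genes most like it in each library, with dashed lines between FOXP2 clones, FOXP2-CPED1 clones and controls. Errfi1 runs from 8.63 RPKM in FOXP2 clone 4 to 90.3 in the controls, and Egr3 stays at or below 9.93 RPKM in the clones, against 49.0 in parental and 54.7 in vector cells.

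Among the ligands, Nrg1 was the most abundant in every library. It stood at 11.7, 16.6, 5.14 and 11.5 RPKM in FOXP2 clones 1 to 4, at 5.44, 10.3, 6.83 and 13.5 in FOXP2-CPED1 clones 1 to 4, and at 10.4 in parental and 9.29 in vector cells. Clones lay on both sides of the controls in both constructs. The log2 difference was 0.08 ± 0.41 with FOXP2 (95% interval -0.83 to 0.99; adjusted p = 0.978, limma) and -0.18 ± 0.41 with FOXP2-CPED1 (-1.09 to 0.73; adjusted p = 0.958).

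Hbegf was lower than the controls in most clones. It stood at 2.84, 13.5, 2.23 and 3.34 RPKM in FOXP2 clones 1 to 4, at 2.71, 2.65, 1.49 and 7.58 in FOXP2-CPED1 clones 1 to 4, and at 8.28 in parental and 8.44 in vector cells. FOXP2 clone 2 lay above both controls, FOXP2-CPED1 clone 4 just below them, and the remaining 6 clones at 3.34 RPKM or less. On the log2 scale Hbegf differed by -0.82 ± 0.60 with FOXP2 (adjusted p = 0.778, limma), -1.18 ± 0.60 with FOXP2-CPED1 (adjusted p = 0.733), while the 8 clones as 1 set had adjusted p = 0.643. Without FOXP2 clone 2 the difference with FOXP2 was -1.31, and it still did not pass (adjusted p = 0.276, limma).

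Ereg was low in most clones too. It stood at 1.62, 11.3, 3.16 and 1.70 RPKM in FOXP2 clones 1 to 4, at 3.13, 1.71, 2.48 and 5.65 in FOXP2-CPED1 clones 1 to 4, and at 7.93 in parental and 8.23 in vector cells. Again FOXP2 clone 2 was the only clone above the controls, and FOXP2-CPED1 clone 4 was the next highest. Its log2 difference was -1.06 ± 0.57 with FOXP2 (adjusted p = 0.692, limma), -1.18 ± 0.57 with FOXP2-CPED1 (adjusted p = 0.716) and -1.12 ± 0.52 over the 8 clones (adjusted p = 0.557). All 4 FOXP2-CPED1 clones lay below both controls for Hbegf, Ereg and Errfi1, 3 of 8 members, against 13.3% of all rows. Without FOXP2 clone 2 the Ereg difference with FOXP2 was -1.56 (adjusted p = 0.146, limma). When libraries were weighted by their quality in limma, Hbegf (adjusted p = 0.00568) and Ereg (adjusted p = 0.00278) passed over the 8 clones, in a fit that called 1842 rows.

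Btc was the lowest ligand. It stood at 1.12, 1.94, 0.299 and 1.07 RPKM in FOXP2 clones 1 to 4, at 1.40, 0.316, 0.847 and 0.344 in FOXP2-CPED1 clones 1 to 4, and at 0.748 in parental and 0.624 in vector cells. Both constructs had clones on either side of the controls. The difference on the log2 scale was 0.26 ± 0.34 with FOXP2 (adjusted p = 0.888, limma) and -0.01 ± 0.34 with FOXP2-CPED1 (adjusted p = 0.998); at this level the scale compresses differences.

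The 4 measured ligands summed to 17.3, 43.4, 10.8 and 17.6 RPKM in FOXP2 clones 1 to 4, to 12.7, 15.0, 11.6 and 27.1 in FOXP2-CPED1 clones 1 to 4, and to 27.3 in parental and 26.6 in vector cells. FOXP2 clone 2 exceeded both controls, FOXP2-CPED1 clone 4 lay between them, and the other 6 clones were below. The makeup of the sum differed as well. Hbegf and Ereg together made up 25.8 to 57.2% of it in FOXP2 clones and 29.1 to 48.9% in FOXP2-CPED1 clones, against 59.4% in parental and 62.7% in vector cells. No test is given for these sums, since the genes were chosen with results known, and summed RPKM counts transcripts and not ligand released from the cell.

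**Figure D4:**
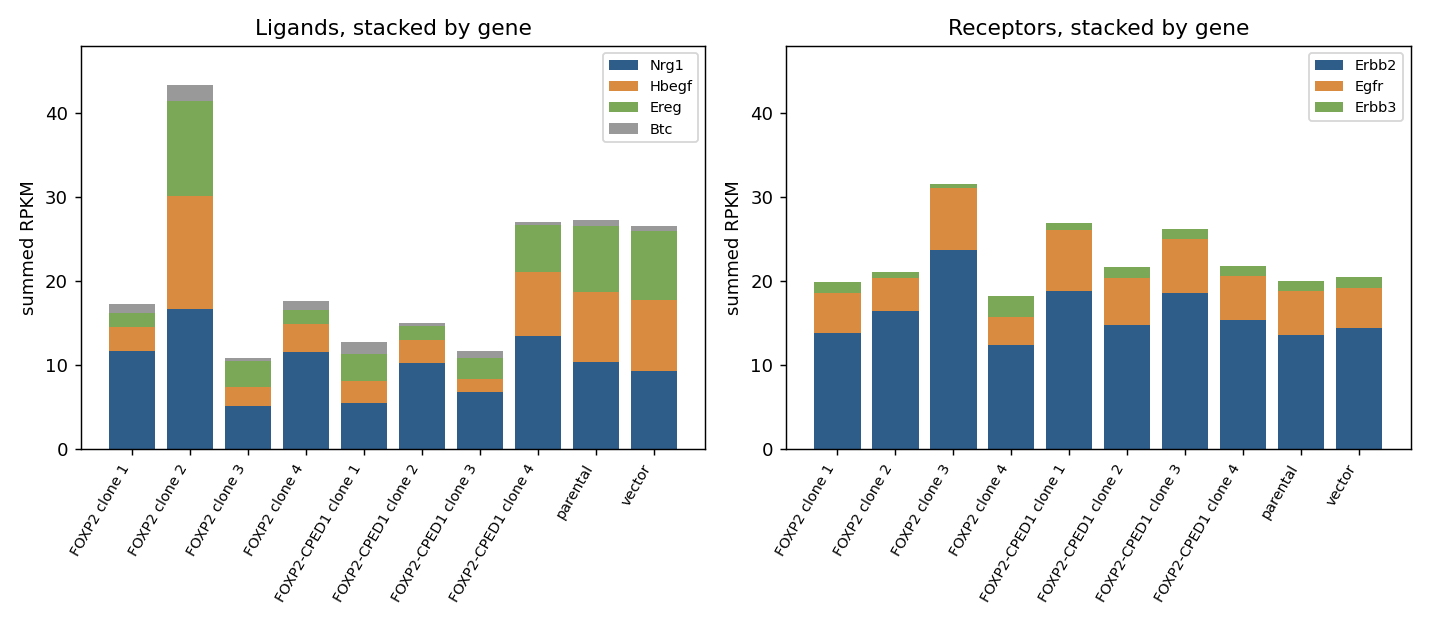
RPKM summed over the 4 measured ligands (left) and the 3 receptors (right) in each library, stacked by gene, on the same linear axis. The ligand sum ranges from 10.8 RPKM in FOXP2 clone 3 to 43.4 in FOXP2 clone 2, and the receptor sum from 18.2 in FOXP2 clone 4 to 31.6 in FOXP2 clone 3.

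Erbb2, the receptor without a ligand, was the most abundant of the 3 receptors in every library. It stood at 13.8, 16.4, 23.7 and 12.4 RPKM in FOXP2 clones 1 to 4, at 18.8, 14.7, 18.6 and 15.3 in FOXP2-CPED1 clones 1 to 4, and at 13.6 in parental and 14.4 in vector cells. The 4 FOXP2-CPED1 clones lay above both controls, as 12.2% of rows did, clones 2 and 4 closely. The FOXP2 clones spread to either side. Over both constructs 6 of 8 clones were above both controls and 1 was below. The log2 difference was 0.19 ± 0.23 with FOXP2 (95% interval -0.32 to 0.70; adjusted p = 0.878, limma) and 0.24 ± 0.23 with FOXP2-CPED1 (-0.27 to 0.75; adjusted p = 0.879).

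Egfr, a receptor of Hbegf, Ereg and Btc, was present in every library at a lower level. It stood at 4.69, 3.94, 7.37 and 3.35 RPKM in FOXP2 clones 1 to 4, at 7.31, 5.68, 6.47 and 5.27 in FOXP2-CPED1 clones 1 to 4, and at 5.17 in parental and 4.71 in vector cells. As with Erbb2, the 4 FOXP2-CPED1 clones were above both controls, as 12.2% of rows were; clones 2 and 4 were close to them and clones 1 and 3 farther away. In the FOXP2 arm only clone 3 was above them. On the log2 scale Egfr differed by -0.07 ± 0.25 with FOXP2 (adjusted p = 0.968, limma) and 0.27 ± 0.25 with FOXP2-CPED1 (95% interval -0.28 to 0.81; adjusted p = 0.874).

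Erbb3, a neuregulin receptor, was near the limit of 1 RPKM. It stood at 1.39, 0.696, 0.487 and 2.47 RPKM in FOXP2 clones 1 to 4, at 0.877, 1.25, 1.13 and 1.19 in FOXP2-CPED1 clones 1 to 4, and at 1.23 in parental and 1.36 in vector cells. The FOXP2 clones were spread more widely than the FOXP2-CPED1 clones and overlapped with the controls. Its log2 difference was -0.10 ± 0.31 with FOXP2 (adjusted p = 0.961, limma) and -0.12 ± 0.31 with FOXP2-CPED1 (adjusted p = 0.966).

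Ordered by mean RPKM in the control, the transcripts ran Errfi1 (90.3), Erbb2 (14.0), Nrg1 (9.82), Hbegf (8.36), Ereg (8.08), Egfr (4.94), Erbb3 (1.30) and Btc (0.686). The ranges of neighbouring genes did not overlap over the 2 controls; the closest were Hbegf at 8.28 and 8.44 and Ereg at 7.93 and 8.23. In the 8 clones the order was Errfi1 (19.0 ± 8.17), Erbb2 (16.7 ± 3.57), Nrg1 (10.1 ± 4.06), Egfr (5.51 ± 1.49), Hbegf (4.54 ± 4.06), Ereg (3.84 ± 3.28), Erbb3 (1.19 ± 0.599) and Btc (0.917 ± 0.588), as mean RPKM ± SD with n = 8. Every pair of neighbours in that order overlapped within their SDs.

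No member differed between the constructs by limma: 0 of 8 passed and 0 had an unadjusted p under 0.05, while 0% of all rows passed and 2.16% had an unadjusted p under 0.05. In 0 members did all clones of one construct lie to one side of the other, as 0.802% of rows did with FOXP2-CPED1 lower and 0.576% with it higher. The largest difference, FOXP2-CPED1 minus FOXP2, was in Hbegf at -0.36 ± 0.49 (95% interval -1.45 to 0.73), followed by Egfr at 0.34 ± 0.20 (-0.11 to 0.78), with adjusted p = 0.9998 for both. The mean of Egfr was 6.18 ± 0.900 RPKM with FOXP2-CPED1 and 4.84 ± 1.78 with FOXP2 (SD, n = 4 each). The exact permutation p of the 8 members between constructs ran from 0.2 to 0.971, where 0.0286 is the smallest possible. The intervals do not show that the constructs act alike.

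On the log2(RPKM + 1) scale, clones of the same construct differed from each other most for Hbegf and Ereg and least for Egfr and Erbb2. The SD between clones of a construct was 0.88 for Hbegf, 0.83 for Ereg, 0.66 for Errfi1 and 0.59 for Nrg1. These exceed the SD of 96.7%, 96.1%, 91.8% and 89.1% of tested rows, whose median is 0.28. It was 0.45 for Btc and 0.40 for Erbb3. For Erbb2 it was 0.30, above 54.1% of rows, and for Egfr 0.32, above 58.1%. The added 1 RPKM compresses the spread of Btc and Erbb3, and as a ratio of RPKM these varied more than Nrg1 among FOXP2 clones. There the highest clone exceeded the lowest 6.49 times for Btc, 5.06 times for Erbb3, 3.98 times for Errfi1 and 3.23 times for Nrg1. Among FOXP2-CPED1 clones the ratio was 4.43 for Btc, 1.42 for Erbb3, 2.18 for Errfi1 and 2.48 for Nrg1. This spread is a description, and it sets the width of the intervals given for Hbegf and Ereg.

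None of the 28 pairs of members passed over the 8 clones after adjustment over the pairs, and those with the smallest Pearson p are described. By rank, Ereg and Errfi1 also had rho = 0.833 (exact permutation p = 0.0154, adjusted 0.0718). Their r was 0.603 (exact permutation p = 0.115, adjusted 0.321). The smallest Pearson p was that of Erbb3 and Errfi1, with r = -0.878 and rho = -0.833 (exact permutation p = 0.00464 and 0.0154, adjusted 0.0662 and 0.0718), and r = -0.589 without the 2 clones farthest from the median of Erbb3. Within constructs r was -0.373 over the 4 FOXP2-CPED1 clones and -0.988 over the 4 FOXP2 clones. Erbb2 and Errfi1 had r = 0.835 and rho = 0.762 (exact permutation p = 0.00995 and 0.0368, adjusted 0.0662 and 0.114), and r = 0.472 without the 2 clones farthest from the median of Erbb2; r was 0.447 within FOXP2-CPED1 and 0.950 within FOXP2. Hbegf and Nrg1 had r = 0.769 and rho = 0.857 (exact permutation p = 0.0195 and 0.0107, adjusted 0.0779 and 0.0718), and r = 0.535 without the 2 farthest. Egfr and Erbb2 had Pearson's r = 0.817 and Spearman's rho = 0.833 (exact permutation p = 0.0130 and 0.0154, adjusted 0.0662 and 0.0718), and r = 0.907 without the 2 clones farthest from the median of Egfr. FOXP2 clone 3 was highest and FOXP2 clone 4 lowest for both. Nrg1 and Egfr had r = -0.843 and rho = -0.833 (exact permutation p = 0.0122 and 0.0154, adjusted 0.0662 and 0.0718), and r = -0.654 without the 2 farthest clones. Erbb2 and Erbb3 had r = -0.862 and rho = -0.929 (exact permutation p = 0.00774 and 0.00223, adjusted 0.0662 and 0.0625), and r = -0.587 without the 2 farthest. The relation of Hbegf and Ereg, r = 0.854 (exact permutation p = 0.0142, adjusted 0.0662) with rho = 0.310 (exact permutation p = 0.462, adjusted 0.681), rested on 2 clones, since without them r was -0.465. Over the 5 clones whose mitochondrial rows were above 0, r was -0.804 for Erbb3 and Errfi1 and 0.805 for Erbb2 and Errfi1. It was 0.659 for Hbegf and Nrg1, 0.904 for Egfr and Erbb2 and -0.945 for Nrg1 and Egfr. For Erbb2 and Erbb3 it was -0.998, and for Hbegf and Ereg 0.743. With 4 or 5 clones r is imprecise, so these values are descriptions. RPKM scaling by library is shared by all points.

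The 5 rows most like Nrg1 over the 10 libraries were Acot9, a mitochondrial acyl-CoA thioesterase (r = 0.972), Rbbp7, a histone-binding protein (0.969), the co-chaperone Dnaja2 (0.967), Ola1, an Obg-like ATPase (0.959), and Ndufaf4, an assembly factor of respiratory complex I (0.955). Over the 8 clones the correlations were 0.977, 0.969, 0.967, 0.964 and 0.958. These genes were picked as the closest of 12842 rows.

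Around the family, 72 genes of ligand processing, receptor signalling, receptor removal and the ERK response were listed; 60 had a row of their own, 7 stood only in rows joined with other genes, and 59 were tested. With FOXP2, 0 passed by limma, where 0.397% of all rows fell and 0.0389% rose. With FOXP2-CPED1, 2 fell and 0 rose, where 0.327% of all rows fell and 0.0234% rose. Over the 8 clones the same 2 genes fell. Between constructs 0 passed. Of the 59, 35 had negative differences over the 8 clones, against 48.4% of all rows.

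Both genes that fell belong to the list of 16 ERK response genes, 15 of them tested. Egr1, an immediate early transcription factor, stood at 67.6, 58.4, 75.8 and 28.8 RPKM in FOXP2 clones 1 to 4, at 25.8, 40.1, 18.3 and 34.7 in FOXP2-CPED1 clones 1 to 4, and at 174.3 in parental and 179.6 in vector cells. Every clone lay far below the controls. The log2 difference was -2.59 ± 0.38 with FOXP2-CPED1 (adjusted p = 0.0247, limma) and -1.69 ± 0.38 with FOXP2 (adjusted p = 0.130). Phlda1 averaged 12.8 ± 3.82 RPKM with FOXP2-CPED1 and 17.9 ± 8.84 with FOXP2 (SD, n = 4 each), against 75.5 ± 3.78 in the control (n = 2). Its difference was -2.51 ± 0.40 with FOXP2-CPED1 (adjusted p = 0.0313, limma) and -2.14 ± 0.40 with FOXP2 (adjusted p = 0.0677). The list had a median of -1.01 over the 8 clones with 11 of 15 negative, against a median of 0.01 over all rows. It was chosen with these results in view and overlaps with genes already known to be low here.

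The genes of shedding, signalling and receptor removal did not pass in any comparison. Of 10 shedding genes, 9 were tested, with a median of -0.01 over the 8 clones. The protease inhibitor Timp3 averaged 97.3 ± 18.7 RPKM in the 8 clones and 168.1 ± 6.97 in the control (adjusted p = 0.176, limma), and Rhbdf1, which controls maturation of the protease ADAM17, 37.1 ± 4.88 and 47.6 ± 1.61 (adjusted p = 0.517). Of 24 adaptor and kinase genes, 20 were tested, with a median of -0.05. Pik3r1, a regulatory subunit of PI3-kinase, averaged 13.6 ± 3.26 RPKM in the clones and 6.36 ± 0.446 in the control (adjusted p = 0.141, limma). The docking protein Gab1 averaged 7.63 ± 1.46 and 10.1 ± 0.266 (adjusted p = 0.611). Of 16 receptor removal genes, 13 were tested, with a median of 0.07. The transmembrane protein Lrig3 averaged 13.1 ± 4.91 RPKM in the clones and 6.43 ± 0.359 in the control (adjusted p = 0.488, limma), and Socs5, an adaptor of receptor degradation, 25.5 ± 3.11 and 31.7 ± 0.148 (adjusted p = 0.556). Among the genes named from these lists, every clone lay above both controls for Pik3r1 and Lrig3, as for 5.44% of rows. Every clone lay below both for Timp3, Gab1 and Socs5, as for 6.38% of rows, and Rhbdf1 overlapped. These genes were named for their small p over the same clones and controls, so the shares of all rows are no yardstick for them. Ptpn11 and Socs4, of the same lists but not named by that rule, also lay above both controls in every clone. Of 6 further ligands and receptors, Egf and Nrg4 were tested, and Epgn, Nrg2, Nrg3 and the receptor Erbb4 had no row. Egf averaged 1.40 ± 0.450 RPKM in the clones and 1.29 ± 0.156 in the control, and Nrg4 0.799 ± 0.142 and 0.923 ± 0.489.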

How the data were processed

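RNA of 10 NIH3T3 cultures was extracted with Trizol, and the NEBNext Ultra kit was used for libraries, per the labels' protocols. Per the file headers, the authors deposited 1 table of RPKM values for all libraries. HISAT2, StringTie and the genome mm9 are named in the submitters' processing notes; no version, annotation, strand setting or filter is stated in the sources used here. Rows that name no gene (3581 of 18430, 3.37 to 4.54% of summed RPKM) were left out. Where a symbol had several rows, the row with the highest mean was used, and a row was tested at 1 RPKM or more in at least 2 libraries.

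Values were transformed as log2(RPKM + 1) and fitted with limma 3.58.1 in R 4.3.3 with 3 arms, control (parental and vector), FOXP2 and FOXP2-CPED1, empirical Bayes moderation and a trend; the comparison of all 8 clones averages the 2 clone arms. p-values were adjusted by Benjamini-Hochberg over all rows tested. The fit was tested on simulated data. Count models were not applied to these values. Exact permutation tests and correlations used Python 3.11.15 and SciPy 1.17.1. Spearman's rho between libraries ran from 0.925 to 0.982, and no pair was identical. No source says that the 2 controls are replicates of each other, and the p-values reflect only how far these 10 libraries spread.

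The genes and lists were chosen with earlier results of these data known. Named genes were the 10 members, every listed pathway gene that passed, or the 2 with the smallest p over the 8 clones where a list had none, and the 5 rows most like the most abundant ligand and the most abundant receptor or inhibitor. Alternatives were other pseudocounts (0.1 and 0.25), filters, scalings, weights and fits, clone numbers as a block, and libraries left out.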

Additional observations from a re-analysis of the deposited data

Results flagged for a closer look

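Of 16 sets of 4 clones (8 genes in each of 2 constructs), 2 held a clone far from the other 3 on the linear RPKM scale. The rule was not applied to log2(RPKM + 1), the scale of the tests, on which gaps between high values shrink. For normally distributed values, which RPKM need not be, chance gives about 1 in 20 per set. Sets of the same clones are not independent. Hbegf in FOXP2 clone 2 stood at 13.5 RPKM, with 0.901 of the range of its construct between it and the next clone. Ereg in the same clone stood at 11.3 RPKM, with 0.840 of the range. Both flags fall on the same library, which is also 1 of the 3 with mitochondrial rows listed at 0; the part of this in the 2 values was not tested. The other 2 such libraries, FOXP2 clone 4 and FOXP2-CPED1 clone 3, had 3.34 and 1.49 RPKM of Hbegf and 1.70 and 2.48 RPKM of Ereg.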

How the results depend on the processing

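The 8 genes gave 660 values under 22 alternatives, of which 597 kept their direction and their side of the threshold. The number of members that passed over the 8 clones (1 as reported) was 0 with pseudocounts of 0.1 and 0.25, 0 without the trend and 0 without the 3 libraries listed at 0 for mitochondrial rows, and 3 with library quality weights. It ranged from 0 to 1 with each library left out. With FOXP2 (0 as reported) it was 3 with weights and 0 to 1 with a library left out. With FOXP2-CPED1 (0 as reported) it was 3 with weights, 1 (Errfi1, adjusted p = 0.0293, limma) when FOXP2 clones were kept out of the fit and 0 to 1 with a library left out. Weights called Hbegf, Ereg and Errfi1 in all 3 comparisons with the control, and 2095, 929 and 1842 rows in all, against 56, 45 and 69 as reported, and 4 between constructs, against 0. Rows called with FOXP2 alone were 9 without FOXP2-CPED1 clones in the fit and 23 without the 3 libraries; with a pseudocount of 0.1 they were 37 (FOXP2) and 28 (FOXP2-CPED1). With 1 library left out, rows called ran from 2 to 64 with FOXP2, 0 to 57 with FOXP2-CPED1, 2 to 82 over the 8 clones and 0 to 1 between constructs, the first 3 lowest without a control. The cause was not tested. The direction of small, uncalled differences turned in places. With weights it was 0.051 for Erbb3 with FOXP2, 0.092 for Btc with FOXP2-CPED1, and 0.37 for Ereg and 0.18 for Errfi1 between constructs. Pseudocounts of 0.1 and 0.25 gave 0.059 and 0.030 for Erbb3 between constructs, and quantile normalization gave 0.0038 for Erbb3 with FOXP2 and 0.0059 for Btc with FOXP2-CPED1. Without the 3 libraries it was -0.023 for Btc, -0.29 for Nrg1 and 0.22 for Egfr with FOXP2, -0.040 for Btc over the 8 clones, and 0.47 for Hbegf, 0.35 for Ereg, 0.20 for Nrg1, -0.15 for Erbb2 and 0.16 for Erbb3 between constructs. With each library left out, directions also turned. The ranges with FOXP2-CPED1 were Btc -0.18 to 0.11, Nrg1 -0.38 to 0.0071. The ranges with FOXP2 were Egfr -0.26 to 0.056, Erbb3 -0.33 to 0.072, Nrg1 -0.12 to 0.38. The ranges between constructs were Erbb2 -0.063 to 0.23, Erbb3 -0.19 to 0.21, Ereg -0.36 to 0.38, Errfi1 -0.37 to 0.26, Hbegf -0.71 to 0.13. The ranges over the 8 clones were Nrg1 -0.15 to 0.10. Clone numbers name independent clones and pair nothing by the labels; as a replicate block they gave 0 members past the threshold between constructs, as without the block, and same-numbered clones correlated from -0.24 to 0.28 in their deviations. Absolute depth is unknown, which limits what can be said of Btc and Erbb3.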
